A study of Ambystoma mexicanum with 8 samples.

Results

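The cells described here are epidermal cells of the axolotl limb in which no transcript of TP63 was counted. Members were chosen by UMI counts (unique molecular identifiers, each standing for 1 captured transcript) of a few genes. A cell was a member when its keratin counts KRT5 plus KRT12 reached 10 UMIs and its adhesion counts EPCAM plus CDH1 plus DSP reached 3. It also had to hold 0 UMIs of COL17A1 plus TP63, under 3 of AGR2, under 2 of MKI67 plus TOP2A, under 2 of CD3E plus CD3G, and under 20% of its UMIs on haemoglobin genes. The rule found 534 of 35013 cells, which is 1.53%. COL17A1, a hemidesmosome collagen, was not analysed here, so the absence of basal markers rested on TP63 alone, and the members are called TP63-zero epidermal cells.

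The axolotls (Ambystoma mexicanum) were wild-type in every group. The study dissociated their limbs, sorted live cells of 2C DNA content, and sequenced single cells with the 10x 3' v3.1 chemistry. Cells came from homeostatic limbs (labelled Intact) or from limbs described as systemically activated and taken 14 days after an amputation (labelled Contra). Every group shares the sort and the chemistry. The series text calls the 2C cells dividing and the protocol calls them non-dividing. The intact libraries analysed carry replicate numbers 1, 2 and 4, the contra libraries 1, 2, 4 and 5, and an eighth sample, intact 5, was not analysed here. The labels give no age or sex and do not say whether a library is 1 animal or a pool, so the tests measure only the spread between these samples.

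In vertebrate epidermis, basal keratinocytes sit on a basement membrane that they attach to through laminin-332 and the integrin of alpha 6 and beta 4 chains, and they keep TP63, the transcription factor that marks their identity in mammals. Cells that leave the basal layer lose these attachments, keep their desmosomes, and turn to suprabasal keratins and envelope proteins such as periplakin and envoplakin. Amphibian skin holds further surface cells, among them mucus-secreting cells and mitochondria-rich ionocytes that carry the vacuolar proton pump.

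The 7 libraries held between 4367 and 5775 cells and between 97977234 and 133670940 UMIs. Intact 1, intact 2 and contra 1 stood apart, with 3.32% to 4.73% of their cells in the epidermal gate (the keratin, adhesion, CD3 and haemoglobin conditions alone) against 21.8% to 48.4% in the other 4. Stray keratin counts were looked for in cells with CD3 transcripts, which should lack epidermal keratins. Between 0.796% (intact 1) and 38.3% (contra 2) of these T cells held 10 or more KRT5 plus KRT12 UMIs. Up to 7.97% of them (contra 5) also met the adhesion condition. Whether these counts came from free RNA or from a T cell and an epidermal cell sharing a droplet was not tested. No member had a doublet score of 0.25 or more, a level reached by 439 of all cells (1.25%). Libraries shared 236 cell barcodes, of which 7 belonged to members and 0 to a pair of members.

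TP63-zero epidermal cells were found in every library. Intact 1, intact 2 and intact 4 held 14, 18 and 79 of them. Contra 1, contra 2, contra 4 and contra 5 held 19, 62, 74 and 268. Contra 5 alone gave 50.2% of all members. As a share of all cells they were 0.274%, 0.367% and 1.78% in the intact libraries and 0.329%, 1.42%, 1.55% and 4.74% in the contra libraries, so both groups held low and high values and overlapped. Contra libraries averaged 2.01% ± 1.90 (SD, n = 4). The intact mean was 0.806% ± 0.842 (SD, n = 3). The difference of 1.20 percentage points was below the contra SD and above the intact SD. An exact permutation test, two-sided, gave p = 0.514 (smallest possible 0.0571). Same-numbered pairs differed by 0.295 points on average (exact sign-flip test over 3 pairs, p = 0.75, smallest possible 0.25), and leaving out contra 5 gave the same 0.295.

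Counted against epidermal-gate cells, the direction turned. The members made up 6.60%, 11.04% and 5.25% of gated epidermal cells in intact 1, 2 and 4 and 6.96%, 6.51%, 4.62% and 9.78% in contra 1, 2, 4 and 5. These ranges overlapped, and contra minus intact was -0.667 percentage points (exact permutation test, two-sided, p = 0.686). Gated epidermal cells themselves ranged from 3.32% to 48.4% of a library, with the 3 lowest values in the 3 libraries that held the smallest shares of members.

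**Figure D1:**
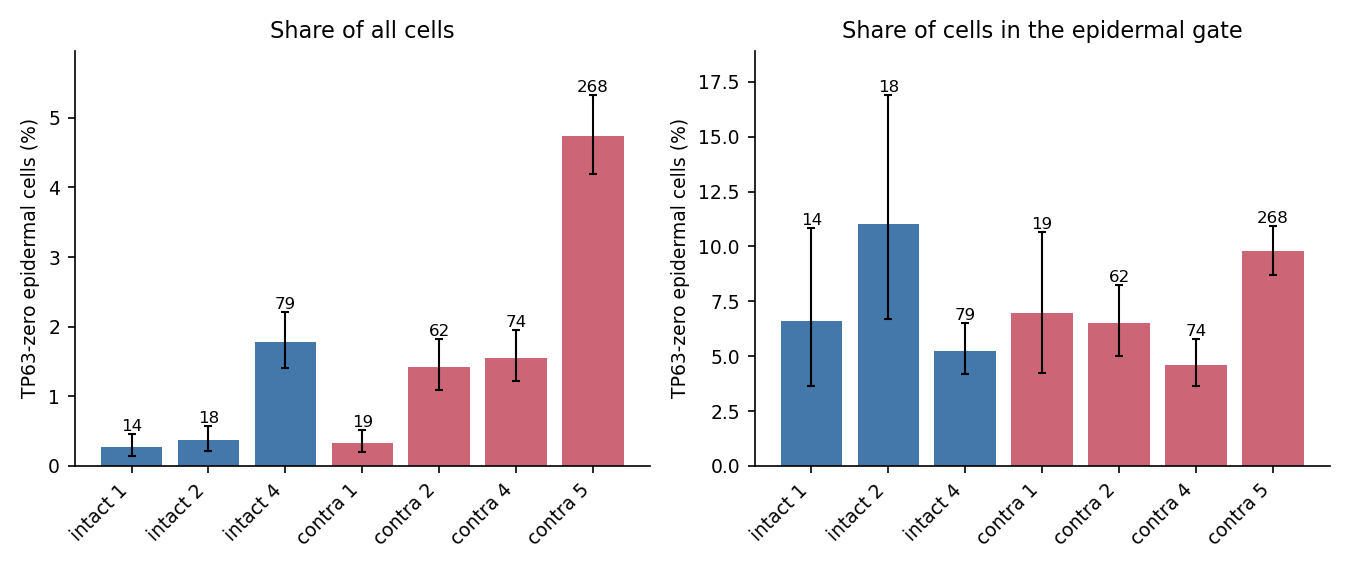
TP63-zero epidermal cells per library, as a percentage of all cells and as a percentage of gated epidermal cells, with exact 95% binomial intervals that cover counting error only. The share of all cells runs from 0.274% to 4.74% and the share of gated epidermal cells from 4.62% to 11.04%, with intact and contra libraries overlapping in both.

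The counts that chose the members are a description. Over the 534 cells, KRT5 plus KRT12 had a median of 759.5 UMIs (range 10 to 2460) and EPCAM plus CDH1 plus DSP a median of 30 (range 3 to 85). Near the edges, 26 members held 10 to 19 keratin UMIs, 13 held exactly 3 adhesion UMIs, 106 held 2 AGR2 UMIs and 41 held 1 UMI of MKI67 plus TOP2A. Just outside the AGR2 limit, 68 cells that met every other condition held 3 AGR2 UMIs. Most members were therefore far from the keratin and adhesion limits, while AGR2, a protein disulfide isomerase of secretory cells, was cut within a run of counts.

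The TP63 limit also cut a continuous run of counts. Among 2756 non-cycling, AGR2-low epidermal cells, 534 held 0 TP63 UMIs, 726 held 1, 628 held 2, 421 held 3, 244 held 4, 112 held 5 and 91 held 6 or more. A single TP63 rate of 1.01 per 10000 UMIs, applied to each cell's own depth, gives 478 cells at 0, against 534 counted. Members also had fewer UMIs: the median was 15639, against 18530 in cells with 1 or 2 TP63 UMIs and 21946 in cells with 3 or more. The member median lay below that of cells with 3 or more TP63 UMIs in 7 of 7 libraries (mean difference -6673 ± 4927 UMIs, SD, n = 7), which is given with no test because a TP63 count rises with a cell's depth. At this depth a count of 0 in 1 cell does not show that the cell lacked TP63 transcripts.

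LAMA3 and LAMB3, which encode chains of laminin-332 and which the rule did not use, were lowest at 0 TP63 UMIs. Their summed level was 144 CPM (counts scaled to the same total of UMIs) in TP63-zero cells, 186 in cells with 1 TP63 UMI, and 187, 185, 191, 188 and 202 CPM in cells with 2, 3, 4, 5 and 6 or more. In keratin-high cells, in which KRT5 plus KRT12 made up 2% or more of UMIs, it was 153 CPM at 0, 172 CPM at 1 and 196 CPM at 6 or more, with 168 to 184 CPM in between. The level at 0 was the lowest of the 7 classes in both sets.

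**Figure D2:**
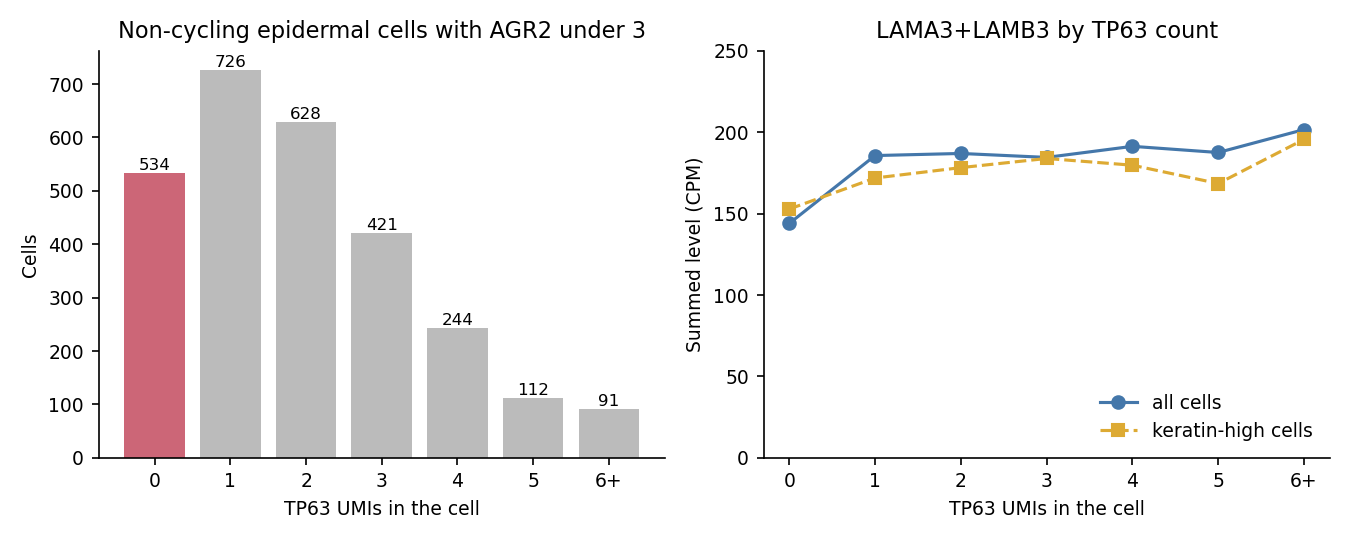
Number of non-cycling, AGR2-low epidermal cells by TP63 UMIs per cell, and the summed level of LAMA3 and LAMB3 in CPM in the same classes. The 534 cells at 0 form the low end of a continuous distribution, and LAMA3 plus LAMB3 is 144 CPM there against 185 to 202 CPM in the other classes.

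The members held epidermal markers, and they also held basal markers other than TP63, which goes against the label of cells without basal markers. S100P, an EF-hand calcium-binding protein, stood at 8382 CPM with a UMI in 98.3% of members (median depth 15639 UMIs). In T cells (median depth 12170 UMIs) it stood at 35.4 CPM with a UMI in 33.3%. This comparison set leaves out T cells with 10 or more keratin UMIs and so understates stray epidermal counts. EPPK1, the cytolinker epiplakin, had a UMI in 96.6% of members and 4.74% of T cells. KRT15, a keratin that marks basal cells in mammals, had a UMI in 89.9% of members and 15.4% of T cells. LAMA3 and LAMB3, chains of laminin-332, had a UMI in 55.4% and 57.5% of members against 0.789% and 0.701% of T cells. ITGA6, the alpha 6 integrin of hemidesmosomes, had one in 28.3% of members and 9.90% of T cells. Each of these shares was above that of the T cells.

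By library, the summed LAMA3 and LAMB3 level of the members was 119, 128 and 123.7 CPM in intact 1, 2 and 4 and 120.2, 114, 165 and 157 CPM in contra 1, 2, 4 and 5. In cells with 3 or more TP63 UMIs it was 142, 154 and 174 CPM and then 156, 207, 183 and 215 CPM. The members were lower in every library, with means of 133 ± 20.2 and 176 ± 27.7 CPM (SD, n = 7). AGR2-high epidermal cells, with 3 or more AGR2 UMIs, averaged 91.8 ± 24.5 CPM (SD, n = 7) and were below the members in 6 of 7 libraries, the exception being contra 2 with 119 CPM.

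KRT15 did not follow that order. Its level in the members was 4975, 5822 and 4997 CPM in intact 1, 2 and 4 and 2559, 2153, 4081 and 3266 CPM in contra 1, 2, 4 and 5. The members were below cells with 3 or more TP63 UMIs in 3 of 7 libraries. On this scale the intact values all lay above the contra ones. For the main KRT15 model on edgeR's normalised scale, given below, contra 4 lay within the intact range. S100P averaged 7941 CPM in the members and was below the TP63-rich cells in 4 of 7 libraries. ITGA6 averaged 31.2 CPM in the members and 43.7 CPM in TP63-rich cells and was lower in 6 of 7 libraries.

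**Figure D3:**
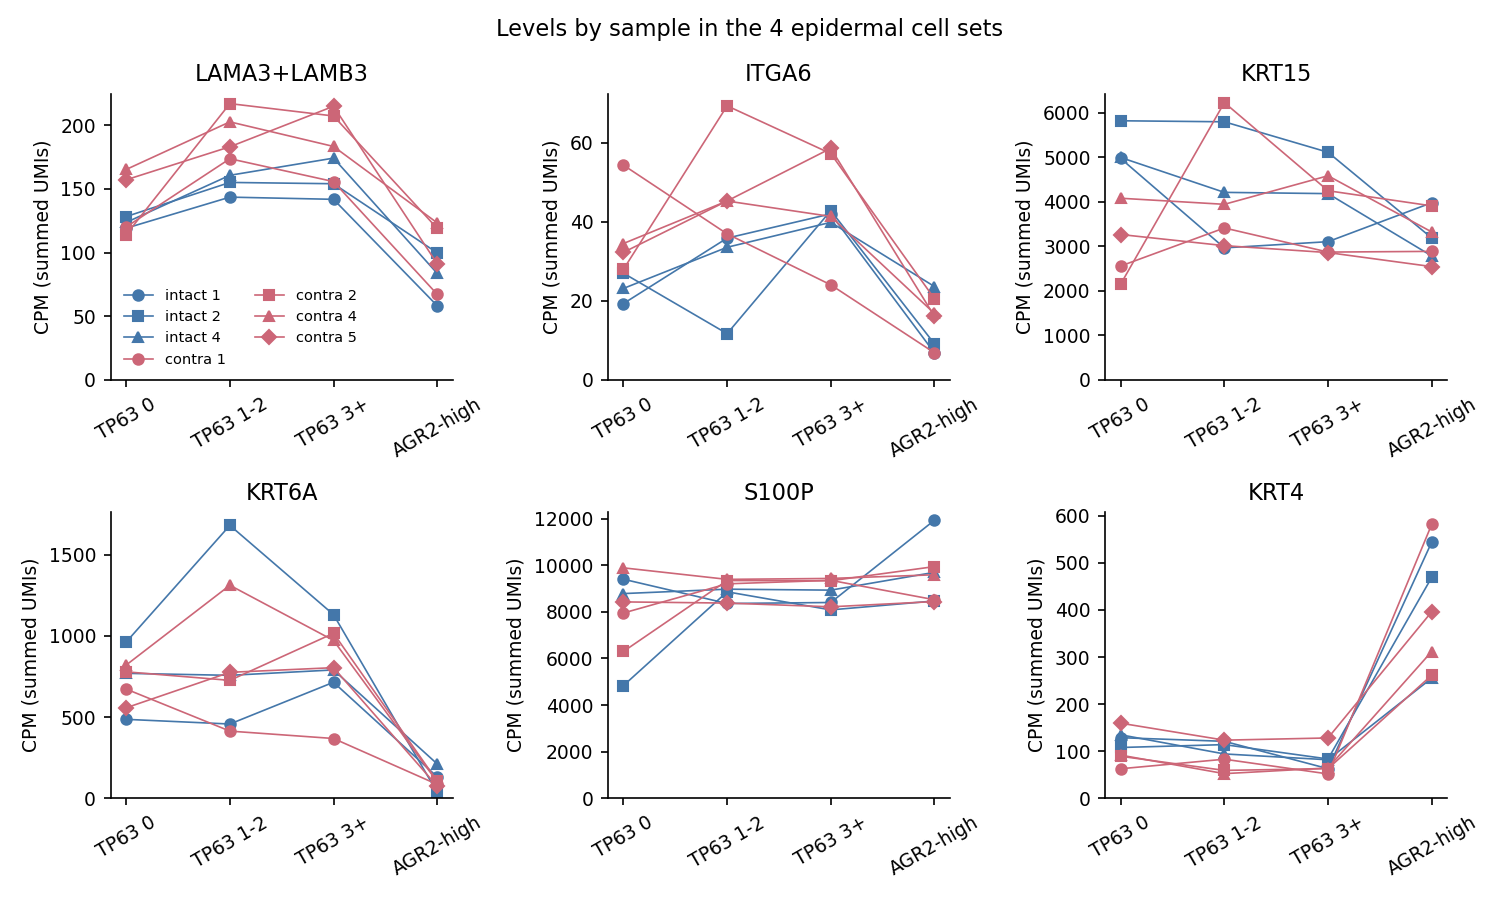
Level in CPM of LAMA3 plus LAMB3, KRT15 and other epidermal genes in TP63-zero cells, cells with 1 or 2 TP63 UMIs, TP63-rich cells (3 or more) and AGR2-high cells, with 1 point per library and lines joining a library's points. LAMA3 plus LAMB3 in TP63-zero cells lies below TP63-rich cells in 7 of 7 libraries and above AGR2-high cells in 6 of 7, while KRT15 lies below TP63-rich cells in 3 of 7.

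The members were not 1 uniform population. Keratin took a median of 5.03% of a member's UMIs (range 0.041% to 10.3%), and 91 of the 534 members (17.0%) lay under 2%. Only 25 members lay between 1.5% and 2.5%. These keratin-low members made up 7.14%, 66.7% and 16.5% of members in intact 1, 2 and 4 and 21.1%, 43.5%, 6.76% and 10.8% in contra 1, 2, 4 and 5, so intact 2 and contra 2 were richest in them. Their median depth was 9924 UMIs, against 16369 in the 443 keratin-high members. Of the keratin-low cells in the AGR2-low gate, 91 of 177 (51.4%) held no TP63 UMI, against 443 of 2579 keratin-high cells (17.2%). The share of T cells with 10 or more keratin UMIs was also highest in contra 2 (38.3%). The part of stray keratin counts in the keratin-low members was not tested.

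**Figure D4:**
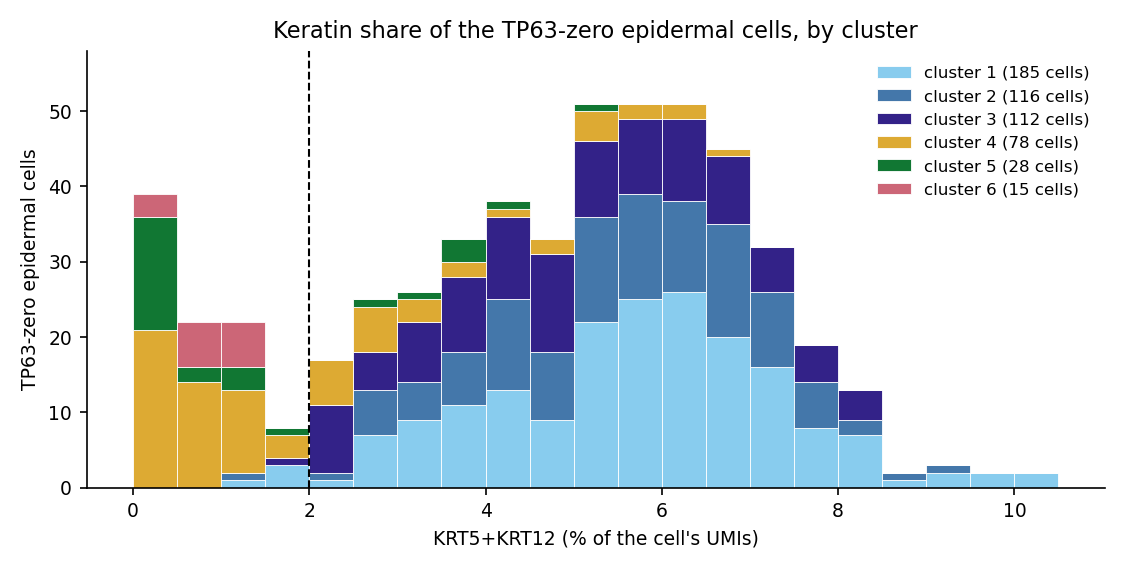
Number of TP63-zero epidermal cells by the percentage of their UMIs on KRT5 plus KRT12, split by cluster. Most members lie around the median of 5.03%, and 91 lie under the 2% line.

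Clustering the 534 members gave 6 clusters, whose genes are given as a description with no test. Clusters 1, 2 and 3 held 185, 116 and 112 cells, with a median keratin share of 5.70%, 5.60% and 4.998% of UMIs, and 6 of these 413 cells were keratin-low. ADH1B, an alcohol dehydrogenase, stood at 1286 CPM in cluster 1 and 1165 CPM in cluster 2, and KRT19, a simple-epithelium keratin, was among the leading genes of clusters 2 and 3. These clusters held most of the members and carried most of the members' KRT15 and KRT6A counts. Scaled to UMIs, KRT6A was 704, 671 and 675 CPM in clusters 1, 2 and 3 and was highest in cluster 5, at 1621 CPM.

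Cluster 4 held 78 cells, 49 of them keratin-low, at a median of 9444.5 UMIs. Its leading genes were FCGBP, UMOD, MUC4 and DMBT1, which encode mucus-associated glycoproteins, and MUC4, a membrane mucin, stood at 742 CPM. Of the members' MUC4 UMIs, 80.1% lay in cluster 4, and of those of the main FCGBP model 81.7%. The rule on AGR2 had removed cells with 3 or more AGR2 UMIs, so a low AGR2 count in cluster 4 was set by the rule. Scaled to UMIs, AGR2 was 74.7 CPM in cluster 4, against 19.7 to 44.8 CPM in the others. The other clusters were deeper, with medians of 15044 to 17784 UMIs. With AGR2 held under 3 UMIs per cell, shallower cells can reach a higher CPM, so these levels do not rank the clusters. The cluster stays without a cell type name.

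Cluster 5 held 28 cells, 21 of them keratin-low, and was led by stromal and immunoglobulin genes. VIM, the intermediate filament of mesenchymal cells, and COL1A1, COL3A1, LUM and FBN1, which encode extracellular matrix proteins, were high there, with COL1A1 at 3921 CPM. COL3A1 had 96.0% of its member UMIs in cluster 5, with 38.6% in 1 cell of contra 4, and FBN1 had 97.6%, with 36.4% in 1 cell of contra 4. Of the UMIs of JCHAIN, the joining chain of polymeric immunoglobulin, 55.3% lay in 1 cell of contra 2. Markers of fibroblasts (8 of 10) and of B cells (3 of 4) were both raised, and the cluster stays without a name.

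Cluster 6 held 15 cells, all of them keratin-low, and was ionocyte-like, with 8 of 10 ionocyte markers raised. It had 0 members in intact 1, intact 2 and contra 1, 4 in intact 4, and 7, 2 and 2 in contra 2, 4 and 5. CKB, a creatine kinase, stood at 2811 CPM, CA7, a carbonic anhydrase, at 1458, and the proton pump subunits ATP6V0D1 and ATP6V0A4 at 1279 and 819 CPM. TMEM213, a small membrane protein, stood at 1491 CPM and had 98.4% of its member UMIs in these cells. LAMB3, ITGA6 and KRT6A were at 0 in the cluster and KRT15 was at 57.0 CPM.

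**Figure D5:**
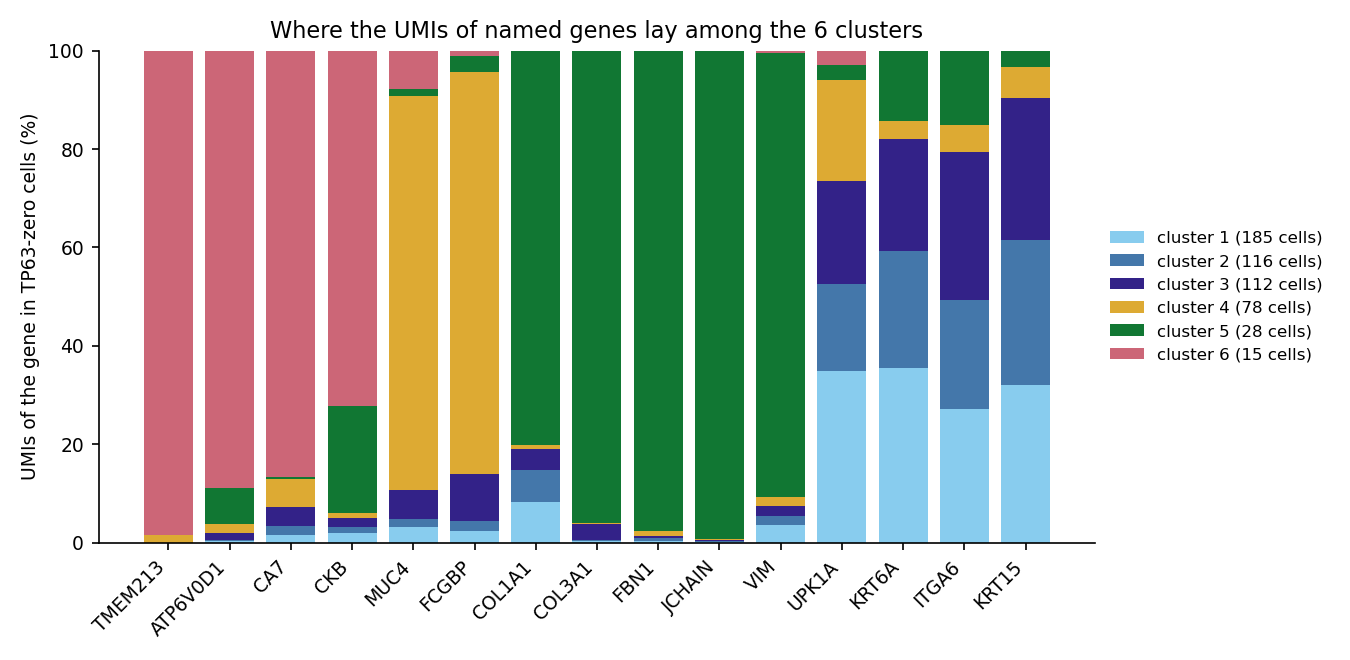
Share of a gene's UMIs in TP63-zero epidermal cells that came from each of the 6 clusters. TMEM213 comes almost wholly from cluster 6 (98.4%), MUC4 mostly from cluster 4 (80.1%) and COL3A1 almost wholly from cluster 5 (96.0%). KRT15 and KRT6A come mainly from clusters 1 to 3, which hold most of the cells.

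The members were then compared with basal epidermal cells, defined as gated cells with 3 or more TP63 UMIs, within the 4 libraries that held 20 or more cells of each kind (intact 4 and contra 2, 4 and 5). ITGA6, LAMA3 and ITGB4, which encode attachment proteins of the basal layer, were lower in the members, and the mucin MUC4, the proton pump subunit ATP6V0D1 and the matrix gene FBN1 were among the higher genes. Of 13913 gene models tested with edgeR's quasi-likelihood test with the library as a block, 382 (2.75%) differed at an adjusted p under 0.05, of which 357 (2.57%) were higher and 25 (0.18%) lower. The members were shallower than basal cells. With every cell thinned to 5000 UMIs, 200 of 7508 models were called (2.66%, with 2.36% higher and 0.306% lower), a share near that of the main fit. In cells of 10000 or more UMIs the share was smaller, with 149 of 13505 models called (1.10%, with 1.02% higher and 0.0815% lower). The part of depth in these calls was not tested.

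ITGA6 was 22.1 CPM in the members of intact 4 and 21.4, 35.6 and 32.1 CPM in those of contra 2, 4 and 5, on edgeR's normalised scale. In basal cells it was 42.4, 56.3, 45.4 and 60.6 CPM, so the members were lower in all 4 libraries and the ranges did not overlap. The log2 fold change was -0.78 ± 0.15 (SE, edgeR adjusted p = 0.00495). With all 7 libraries, where 222 of 10084 models were called (2.2%, with 2.07% higher and 0.129% lower), it was -0.66 and was not called (edgeR adjusted p = 0.116).

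LAMA3 was 56.2, 37.8, 82.0 and 84.1 CPM in the members of intact 4 and contra 2, 4 and 5, and 89.98, 106.6, 101.1 and 127 CPM in basal cells. The members were lower in all 4 libraries and the ranges did not overlap, with a log2 fold change of -0.61 ± 0.15 (SE, edgeR adjusted p = 0.0265). JAG1, a Notch ligand, was 60.7, 26.3, 91.3 and 73.1 CPM in the members and 99.1, 90.3, 141.3 and 100.7 CPM in basal cells. It too was lower in all 4, although members of contra 4 lay just above basal cells of contra 2 (log2 fold change -0.69 ± 0.15, SE, edgeR adjusted p = 0.0138). IGFBP7, a secreted matrix-binding protein, had a log2 fold change of -0.61 (edgeR adjusted p = 0.0251).

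Of 13 models of the basal list that could be tested, 6 were lower and 0 higher in the members, with a median log2 fold change of -0.61 against -0.01 over all models. They included ITGA6, LAMA3, ITGB4 (-1.33, the beta 4 integrin chain), COL7A1 (-1.31, the anchoring fibril collagen) and a minor KRT15 model (-2.69). The main KRT15 model had a log2 fold change of -0.22 (edgeR adjusted p = 0.621). Of 14 desmosome and adherens junction models, 21 tight junction models, 18 mTOR pathway models and 13 heat shock models, 0 passed in either direction. Their medians were -0.17, -0.02, -0.01 and 0.07.

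Several of the higher genes named here had most of their member UMIs in cluster 4, 5 or 6. TMEM213 was 79.0, 137, 41.0 and 7.23 CPM in the members of intact 4 and contra 2, 4 and 5, and at most 0.277 CPM in basal cells. The members were higher in every library, with 372 UMIs in members and 2 in basal cells, and TMEM213 passed the filter on low counts through the members alone, so no fold is given. MUC4 was 75.8, 83.0, 29.4 and 64.3 CPM in the members and 17.9, 7.81, 9.70 and 7.35 CPM in basal cells, again with no overlap (log2 fold change 2.67 ± 0.21, SE, edgeR adjusted p = 2.99e-07). Of the 30 leading models of each cluster, the higher calls held 30 for cluster 6, 29 for cluster 4 and 21 for cluster 5, and 0, 1 and 1 for clusters 1, 2 and 3. The leading models were ranked in the same member counts as the fit used. This overlap is therefore a description, and it covers only part of the higher calls.

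Other higher genes named by size were FBN1 (4.35), CA7 (3.82), COL3A1 (3.11), CKB (3.08), ATP6V1A (2.66), FCGBP (2.36), ATP6V1F (2.14), PLAC8L1 (2.03) and ATP6V1H (1.79), in log2 fold change. ATP6V0D1 was higher too, with 353 UMIs in members and 9 in basal cells. It passed the filter on low counts through the members, so no fold is given. The ATP6V genes encode subunits of the vacuolar proton pump. The ionocyte list is not counted, because its models passed the filter on low counts through the members. Of 7 fibroblast models 3 were higher.

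Restricting both sides to keratin-high cells left 34 called models of 13260 (0.256%), 27 higher (0.204%) and 7 lower (0.0528%), and 33 of them were among the 382. ITGA6 (log2 fold change -0.58, edgeR adjusted p = 0.0344), JAG1 (-0.46, adjusted p = 0.0320) and KRT6A (-0.29, adjusted p = 0.0498), a keratin of activated epidermis, were lower. LAMA3 was -0.34 and not called (edgeR adjusted p = 0.373). JCHAIN (4.205), FBN1 (3.81), COL3A1 (2.54) and KRT18 (0.98), a simple-epithelium keratin, were among the higher ones. FOXI1, the ionocyte transcription factor, was also called higher, with no fold given because it rested on very few cells. Of all members, 18 held a UMI of this FOXI1 model, among them all 15 of cluster 6. Those 15 are keratin-low, so this fit leaves them out, and its FOXI1 call rests at most on the few others. Cluster 6 held 76.7% of the members' FOXI1 UMIs, cluster 2 8.62% and cluster 3 14.7%. Among all members, 4 held 3 or more UMIs of JCHAIN, 4 of FBN1 and 7 of COL3A1. With libraries of 10 or more keratin-high cells, 5 models were called.

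The second comparison set the members against AGR2-high epidermal cells in the same 4 libraries. Members were higher for the keratin KRT6A, the laminin chain LAMA3 and the collagen COL1A2, and lower for the keratins KRT18 and KRT8, the uroplakin UPK1A and the chaperone HSPA5. Of 18334 models, 1381 (7.53%) differed by edgeR's test, 592 (3.23%) higher and 789 (4.3%) lower. With DESeq2's size factors in place of edgeR's scaling the split was 666 higher and 637 lower. With all 7 libraries 2403 of 15943 models were called (15.1%, with 6.71% higher and 8.36% lower). AGR2 itself set the contrast and was not counted. The members were also shallower, with a median of 15639 UMIs against 23069 in AGR2-high cells. With every cell thinned to 5000 UMIs, 448 of 11798 models were called (1.97% higher and 1.83% lower). In cells of 10000 or more UMIs, 1025 of 18611 were called (2.12% higher and 3.39% lower). The part of TP63 or of depth in these calls was not tested.

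KRT6A was 705.7, 562, 795.8 and 528.2 CPM in the members of intact 4 and contra 2, 4 and 5. In AGR2-high cells it was 252.1, 113.5, 125.3 and 81.0 CPM. Every member value lay above every AGR2-high value (log2 fold change 2.55 ± 0.18, SE, edgeR adjusted p = 3.25e-07). Among keratin-high cells, where 1727 of 17769 models were called (9.72%, with 3.22% higher and 6.49% lower), the log2 fold change was 2.39.

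UPK1A, a uroplakin of the apical membrane of surface epithelia, was 44.9, 38.9, 44.9 and 55.1 CPM in the members and 170.6, 179.4, 168.7 and 215.3 CPM in AGR2-high cells. The groups were far apart (log2 fold change -1.75 ± 0.13, SE, edgeR adjusted p = 5.09e-07). KRT18 was 28.5, 31.1, 9.26 and 37.9 CPM against 181.2, 105.3, 147.5 and 227.5 CPM, also without overlap (log2 fold change -2.41 ± 0.21, SE, edgeR adjusted p = 2.80e-06). ATP12A, a potassium-transporting proton pump, was lower by a log2 fold change of -1.85, UMOD by -2.34 and KRT8, the partner of KRT18, by -1.59. UPK1B, UPK2.S, CAPN9, THEM6 and CEEL had log2 fold changes between -1.73 and -1.52.

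Of 23 endoplasmic reticulum stress models, 0 were higher and 15 lower, with a median log2 fold change of -0.74 against -0.01 over all models. HSPA5, the reticulum's main chaperone, was at -1.31, SDF2L1 at -1.31, MANF at -1.09, CALR, the chaperone calreticulin, at -1.07 and XBP1, a transcription factor of the unfolded protein response, at -0.74. Among keratin-high cells 17 of 23 were lower. Of 23 secretory models 1 was higher and 9 lower, with AGR3, a relative of AGR2, at -1.50. AGR2 belongs to this machinery and chose the contrast, so the direction of both lists is not independent of the rule.

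Of 23 immediate early models, 0 were higher and 11 lower, with a median of -0.54. EGR1 and ATF3, transcription factors induced quickly by stimuli including tissue dissociation, were at -0.67 and -0.57, and EGR2 and KLF2 at -1.49 and -0.70. Of 14 basal models 5 were higher and 0 lower, with LAMA3 at 0.59 and ITGB4 among the 5. No fold is given for ITGB4, because AGR2-high cells held almost no UMI of it and its call rested on few member cells. Its level was 146 CPM in cluster 5 of the members and 0 to 5.65 CPM in the other clusters. Among thinned cells, 2.19% of members and 0.0721% of AGR2-high cells held a UMI of it. Of 41 differentiation models 3 were higher and 10 lower, with KRT4 at -1.48, and the grainyhead factor GRHL3 at -0.80. Of 14 desmosome and adherens models 0 passed, and of 22 tight junction models 1 was higher (the claudin CLDN4, 0.98) and 2 lower (CLDN8 at -2.23).

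Matrix genes were higher in the members than in AGR2-high cells for 7 of 7 fibroblast models. COL1A2, a chain of type I collagen, was 255.4, 622.6, 852.8 and 343.3 CPM in the members and 49.3, 120.5, 157.6 and 95.4 CPM in AGR2-high cells, without overlap (log2 fold change 2.51 ± 0.15, SE, edgeR adjusted p = 3.02e-08). The summed level of the fibroblast list was 969 CPM in the members, carried largely by the 28 cells of cluster 5 (10525 CPM). It was 434, 406, 336 and 169 CPM in clusters 1, 2, 3 and 4, 645 in keratin-high members, 984 in basal cells, 136 in AGR2-high cells and 142 in T cells. The part of stromal RNA in these values was not tested.

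Contra and intact members were compared in the libraries of 20 or more member cells, which left intact 4 against contra 2, 4 and 5. Of 10667 models, 0 (0%) passed edgeR's test (183 at an unadjusted p under 0.05), and 0 passed by DESeq2 (119 unadjusted). With all 7 libraries, 0 of 7244 passed by edgeR (216 unadjusted) and 0 by DESeq2 (153 unadjusted). On simulated counts, the edgeR fit over all 7 libraries recovered 3.03% of changes of log2 size 1 and 80.4% of log2 size 2. The fit in the 4 libraries recovered 2.02% and 43.4%. Changes were planted only in models with 20 or more UMIs per library on average, so recovery in models with fewer UMIs was not measured. A count of 0 therefore does not show that changes of these sizes, smaller changes, or changes in models with fewer UMIs were absent. Among keratin-high members of libraries with 20 or more of them, 1 of 9627 models passed (0.0104%), a model of the ribosomal protein gene RPLP0. That fit had 1 intact library, and over all 7 libraries the RPLP0 values overlapped, with 0, 21.0 and 1.43 CPM in intact 1, 2 and 4 and 0, 55.7, 35.2 and 39.1 CPM in contra 1, 2, 4 and 5.

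Whether the replicate numbers pair the samples is not known. Deviations of same-numbered samples correlated at 0.290, 0.512 and 0.207 for numbers 1, 2 and 4, and what these samples share was not tested. A fit that took the number as a block, and so rests on this pairing, called 111 of 10049 models (1.1%). Of these 50 (0.498%) were higher and 61 (0.607%) lower in contra, and the count ran from 50 without number 2 to 254 without number 1. Contra 5 has no partner and added nothing to the contrast. Of the 30 leading models of clusters 4, 5 and 6, 18, 19 and 3 were among the 111. This overlap is a description too, because the leading models were ranked in the same member counts.

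MUC4 was 103, 391 and 86.0 CPM in the members of intact 1, 2 and 4 and 35.9, 101, 33.4 and 71.6 CPM in those of contra 1, 2, 4 and 5. Contra was lower within each pair, although contra 2 lay above intact 4 (log2 fold change -1.80 ± 0.24 in the block fit, SE, edgeR adjusted p = 0.000283). LUM, a collagen-binding proteoglycan, was 0, 0 and 0.716 CPM in the intact members and 0, 92.5, 103 and 26.0 CPM in the contra members. The block fit called it higher, with no fold given because the intact members held almost no UMI of it, and 96.0% of its UMIs lay in cluster 5, with 29.5% in 1 cell of contra 2. Beside these values, cluster 4 had 2, 12 and 11 cells in the intact and 1, 17, 2 and 33 in the contra libraries, and cluster 5 had 0, 2 and 1 against 2, 11, 3 and 9.

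Within keratin-high members the block fit, which took libraries of 5 or more cells and in which intact 2 had 6, called 55 of 6630 models (0.83%), 39 (0.588%) higher and 16 (0.241%) lower in contra, and 34 of the 55 were among the 111. Levels below are of all members, and fold changes are of the keratin-high fit. IRF1, an interferon-responsive transcription factor, was 245.9, 243.2 and 239.3 CPM in the members of intact 1, 2 and 4. It was 95.8, 160.2, 156.6 and 140.9 CPM in those of contra 1, 2, 4 and 5, so the groups did not overlap. The log2 fold change was -1.16 ± 0.23 (SE, block fit, edgeR adjusted p = 0.00106), and without the block, over all members, it was -1.02 and not called (adjusted p = 1.00).

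SOCS1, a brake on cytokine signalling, was 126.3, 119.3 and 137.5 CPM in intact members and 95.8, 95.5, 69.5 and 68.1 CPM in contra members, without overlap (log2 fold change -1.21 ± 0.27, SE, block fit, edgeR adjusted p = 0.00549). The block fit over all members gave -0.72 and did not call it (edgeR adjusted p = 0.173). RTP3, a receptor transporter family member, was 23.3, 18.7 and 35.8 CPM against 92.8, 72.6, 61.6 and 76.1 CPM. All contra values lay above all intact values (log2 fold change 1.38 ± 0.34, SE, block fit, edgeR adjusted p = 0.0235). The cell richest in each gene held 1.92% of the members' IRF1, 5.31% of their SOCS1 and 1.21% of their RTP3 UMIs.

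KRT15 was 5075, 4025 and 5371 CPM in intact members and 2595, 1976, 4828 and 3614 CPM in contra members on the normalised scale. Contra was lower within each pair, and contra 4 lay within the intact range (log2 fold change -0.88 ± 0.14 in keratin-high members, SE, block fit, edgeR adjusted p = 1.67e-05). MPEG1, a pore-forming protein of macrophages, was 418.7, 355.5 and 463.5 CPM against 628.6, 1184, 592.8 and 1028 CPM, without overlap (log2 fold change 0.90 ± 0.19, SE, block fit, edgeR adjusted p = 0.00301). In the block fit over all members it was 0.77 and not called (edgeR adjusted p = 0.0545). Of the other macrophage markers, CSF1R (2.23 CPM), C1QA (3.65 CPM) and MRC1 (0.118 CPM) were near 0 in the members. CTSS and LYZ were not. Across the member clusters CTSS ran from 22.0 to 280 CPM. LYZ ran from 20.4 to 1739 CPM and was highest in cluster 5. IFIT5, an interferon-induced protein, was also higher in keratin-high members (1.19), as was COL1A1 (2.72). Of the members' COL1A1 UMIs, 80.2% lay in cluster 5, with 22.4% in 1 cell of contra 2. The fibroblast list is not counted in this fit, because no intact member held 3 or more UMIs of LUM or COL3A1. Over all members IFIT5 (0.67, edgeR adjusted p = 0.114) and COL1A1 (1.71, adjusted p = 0.128) were not called.

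Whether the contra minus intact difference itself differed between members and basal cells was tested as an interaction. With the 4 libraries of 20 or more cells, 34 of 15942 models (0.213%) were called, all with the more positive contra minus intact difference in members, and VIM (3.87), LGALS1 (3.32) and CKB (2.84), genes with most of their member UMIs in clusters 5 and 6, were among them. Among keratin-high cells 12 of 15061 were called (0.0797%, with 0.073% higher and 0.00664% lower). This rested on 1 intact library. With all 7 libraries 0 of 10084 were called by edgeR (285 at an unadjusted p under 0.05) and 0 by DESeq2, and 0 of the 24 called models that could be tested there passed.

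The members' median UMIs were 24431, 12586 and 19964 in intact 1, 2 and 4 and 19056, 14315, 17945 and 14241 in contra 1, 2, 4 and 5, overlapping widely (exact permutation p = 0.457). Median genes per member were 3831, 3700 and 3896 in intact 1, 2 and 4 and 3332, 3607, 3671 and 3204 in contra 1, 2, 4 and 5. Every contra value lay below every intact value, with means of 3453 ± 222 and 3809 ± 100 (SD, exact permutation p = 0.0571, the smallest this design can give). Thinned to 5000 UMIs, the members held 1615 genes on the median, basal cells 1620 and AGR2-high cells 1651.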

How the data were processed

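UMI counts per gene model and cell were deposited by the authors as 1 sparse matrix of 61014 models, of which 31471 carry a symbol. Per the submitters' processing notes, kallisto 0.48.0 and Seurat 4.2.0 were used. No source used here states their filters, and every deposited cell held at least 3003 UMIs and 1000 genes. Models sharing a symbol were summed for the gate (KRT5 6, KRT12 7). Counts of the members, basal cells and AGR2-high cells were summed per library and tested with edgeR 4.0.16 in R 4.3.3 (quasi-likelihood test, TMM scaling, low-count filter, Benjamini-Hochberg adjusted p under 0.05), with DESeq2 1.42.0 as an alternative. Basal and AGR2-high comparisons took the library as a block. Fits used libraries of 20 or more cells of each kind, and fits with all 7 libraries (10 or more cells), keratin-high subsets (5 or more cells in their block fit) and the block fit over all 7 were added after seeing the data. The scripts were tested on simulated data. Intervals are exact 95% and cover counting error only.

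Genes named between groups were all called models, at most 25 by p, or the 10 smallest p where fewer than 10 passed. Between sets they were the 12 higher and 12 lower called models with the largest fold, a symbol, 50 CPM in the higher set and the same direction in every library, gate genes excluded, plus called genes of the lists. That gave 12 higher and 5 lower against basal cells. Only some are printed, and 1 gene is not reported here. Members, lists and tests were chosen with earlier results of these data known. Members were clustered with scanpy 1.11.5 (2000 variable genes, 20 components, 15 neighbours, Leiden resolution 0.5), and doublets scored with Scrublet at 0.25, no cell being removed. Replicate numbers come from the sample titles. The pairing check correlated deviations from group means over 7264 genes, and each intact sample correlated best with its own number.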

Additional observations from a re-analysis of the deposited data

Results flagged for a closer look

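Contra 2 stood far from the other 3 contra libraries in 4 of 26 values tested for a lone sample; chance flags about 1 in 20 groups. The median keratin share of its members was 2.4997%, against 5.37% to 5.64% in the other contra libraries. Its members' KRT5 level was 13988 CPM. Both values come from the keratin counts that the membership rule used and restate each other, so they are a description. Its KRT14 level was 100.2 CPM, and 97.9% of the members' KRT14 UMIs came from 1 of its cells. Its level of SLC26A4, an anion exchanger of ionocytes, was 101 CPM, and 7 of the 15 ionocyte-like members lay in it. Keratin-low cells made up 43.5% of its members, and 38.3% of its T cells held 10 or more keratin UMIs.

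The contra minus intact difference differed between members and basal cells for 34 models in the 4 libraries of 20 or more cells, by an interaction term in edgeR with 1 intact library, and for 0 with all 7 libraries (285 unadjusted).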

How the results depend on the processing

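The share of members kept its direction under the other gates and denominators except for gated epidermal cells (-0.667 points) and non-cycling, AGR2-low epidermal cells (-4.30 points), and no alternative passed the test, whose smallest possible p with all 7 libraries is 0.0571. Leaving out single libraries gave 0.295 to 1.76 points. The replicate block, the mean difference of same-numbered pairs, gave 0.295.

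Contra against intact called 0 models, 66 with no filter on low counts, 62 to 104 when 1 contra library was left out, 111 with the replicate block over all 7 libraries, 254, 50 and 128 when number 1, 2 or 4 was left out of that block fit, 55 with the block in keratin-high members, and 1 of 9627 in keratin-high members of libraries with 20 or more cells. The fit with intact 4 left out and the block fit in the 4 libraries could not be fitted.

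Against basal cells the 382 calls became 197 by DESeq2, 149 of 13505 models in cells of 10000 or more UMIs (1.10%) and 200 of 7508 models thinned (2.66%). They became 222 with all 7 libraries (217 by DESeq2, 187, 244 and 139 without intact 1, 2 or 4, and 246, 100, 148 and 143 without contra 1, 2, 4 or 5), 34 in keratin-high cells and 5 with libraries of 10 or more such cells. Against AGR2-high cells the 1381 calls became 3322 unfiltered, 448 thinned, 2885 at 10 or more AGR2 UMIs, 2403 with all 7 libraries and 596 to 1620 leaving out 1. The 34 interaction calls became 0 by DESeq2, 21 without doublets, 6 in deep cells, 3 thinned, 35 to 64 leaving out 1, 0 with all 7 (0 by DESeq2, 0, 2 and 6 without intact 1, 2 or 4, and 0, 0, 0 and 1 without contra 1, 2, 4 or 5), 12 in keratin-high cells and 0 with 10 or more.

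Of 937 alternatives for 41 named genes, 818 kept direction and call, 114 lost the call and 5 reversed, all in keratin-high cells: ATP6V1H against basal cells (-0.00641), and against AGR2-high cells TMEM213 (-0.13), CA7 (-0.14, and -0.0106 with 10 or more cells) and ATP6V1H (-0.0528). Cluster 6, which holds most of these counts, is wholly keratin-low, so keratin-high cells leave it out by construction. Other causes were not tested. Fits with all 7 libraries include 3 libraries of 14 to 19 members, and depth per library is set by these cell numbers.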
